A study of Canis lupus familiaris with 10 samples.

Results

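The miRNAs cfa-miR-28, cfa-miR-151 and cfa-miR-708 of the dog were examined in lymph nodes with diffuse large B-cell lymphoma (DLBCL) and in healthy lymph nodes. They were taken by name from the deposited count table, in which all 3 were listed among 320 miRNAs. The rule used the names alone, although earlier results of these data were known when it was set. Small RNA from fresh-frozen lymph nodes was sequenced in 6 dogs with DLBCL and 4 healthy dogs, each of which gave 1 library. Those with DLBCL were hospital patients of several breeds whose affected peripheral node was biopsied under anesthesia. The healthy dogs were young, purpose-bred female hound crosses that were euthanized in surgical teaching courses. The study does not say whether their nodes were taken before or after death. Neither set of labels names an allele, a drug or a treatment. Origin, breed and the way of sampling therefore followed the diagnosis and cannot be told apart from it, and sex differed in part, since the dogs with DLBCL were of both sexes. The study gives no ages for the dogs with DLBCL, so a difference in age cannot be told apart from the diagnosis either. Each library came from whole node tissue, in which fewer cells of a type and less of a miRNA per cell cannot be told apart.

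A mature miRNA guides the silencing machinery to messenger RNAs mainly through its seed, a short stretch near its 5′ end, so miRNAs that share a seed can share targets. In mammals, the 5p arms of miR-28 and miR-708 carry the same seed, and the 5p arm of miR-151 carries the same stretch displaced by a few bases, so that it is a relative and not a strict seed match. miR-28 is known as a restraint on germinal centre B cells, which dampens B cell receptor signaling and is low in many human B cell lymphomas, while miR-151 and miR-708 are best known from solid tumors. The names of the deposited table give no arm, so a value may be the 5p arm, the 3p arm or both. The seed relation described here is that of the 5p arms.

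In the dog annotation UU_Cfam_GSD_1.0, each member had 1 locus, and each locus lay within a protein-coding gene. MIR28 was on chromosome 34 within LOC478670. MIR151 was on chromosome 13 within PTK2, which encodes focal adhesion kinase, and MIR708 was on chromosome 21 within TENM4, which encodes a teneurin of the cell surface. No other miRNA gene lay within 10 kb of any of them (0 for each member), so the members are neither clustered with each other nor with other miRNAs.

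The libraries held between 10686441 and 25784861 reads on the listed miRNAs in DLBCL and between 30432969 and 34709421 in healthy nodes. One miRNA, miR-148a, took 17.8 to 39.0% of these reads in DLBCL and 51.5 to 73.6% in healthy nodes, so a share of all reads is pressed down most in the healthy libraries. Levels are therefore given as CPM, the usual per-size scaling of counts, with library sizes adjusted by the trimmed mean of M-values (TMM), a scaling that sets most miRNAs level between libraries. The deposited TPM values, which are plain shares of the listed reads on the same scale, are given beside them where the answer differs. A miRNA counted as differentially expressed (DEM) in edgeR when its adjusted p-value was below 0.05 and its log2 fold change was beyond 1 in either direction. By this rule, 5 of the 247 miRNAs tested were lower in DLBCL (2.02%) and 9 were higher (3.64%), and 66 had an unadjusted p-value under 0.05. Every DLBCL library lay below every healthy library in CPM for 15 miRNAs (6.07%) and above every healthy library for 17 (6.88%). Of the 3 members, 1 (miR-151) was a DEM and had groups without overlap.

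In TMM-scaled CPM, miR-151 was lower in every DLBCL node than in any healthy node, which did not hold in TPM.

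**Figure D1:**
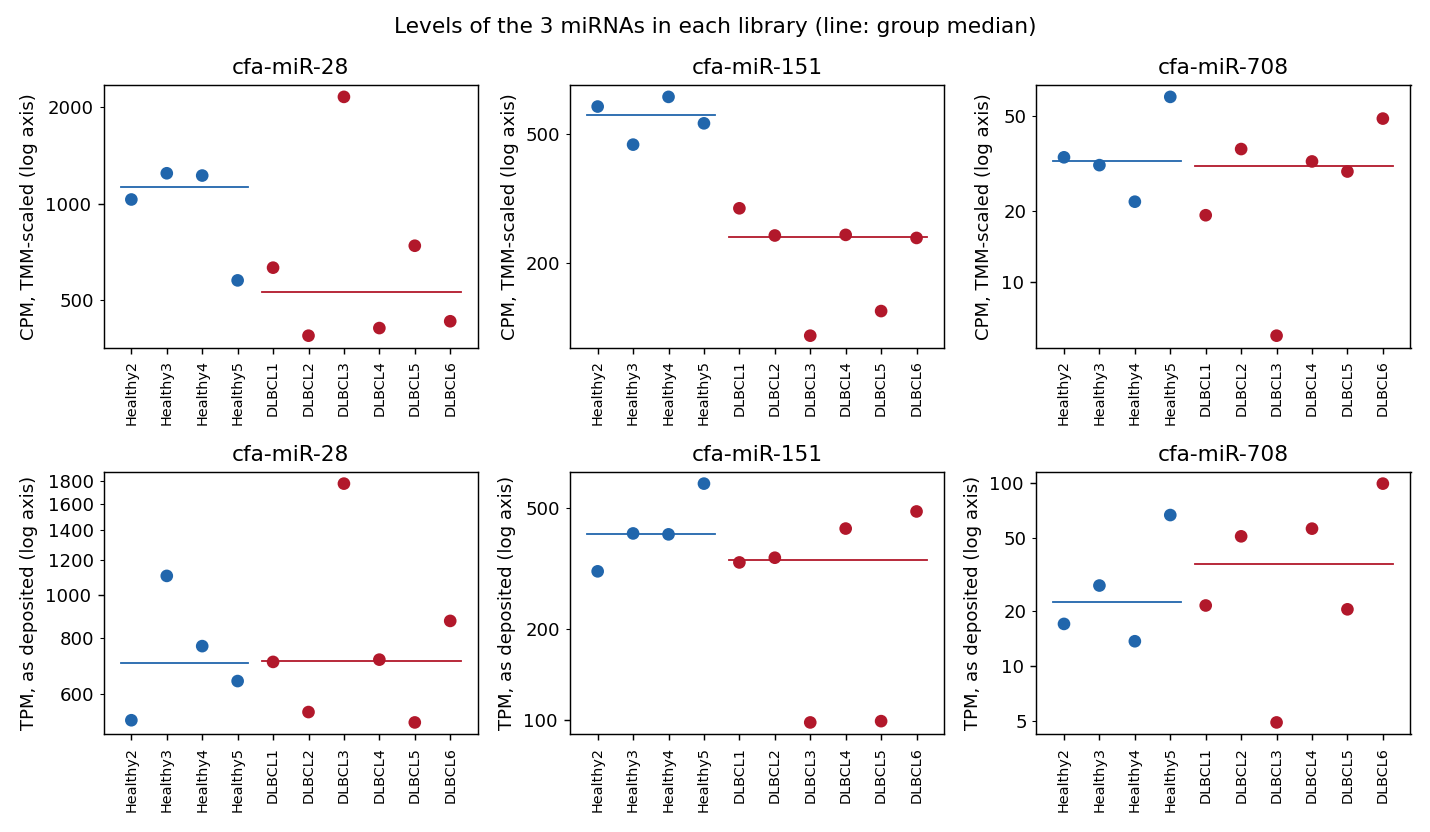
Level of cfa-miR-28, cfa-miR-151 and cfa-miR-708 in each library, as TMM-scaled CPM (upper panels) and as deposited TPM (lower panels), on log axes. Each point is 1 library (blue, 4 healthy; red, 6 DLBCL) and each line is a group median; the groups are apart for miR-151 in CPM and overlap in every other panel.

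The level of cfa-miR-151 was 609 CPM in Healthy2, 465 in Healthy3, 653 in Healthy4 and 541 in Healthy5. In DLBCL, it ranged from 119 CPM in DLBCL3 over a median of 241 to 295 in DLBCL1. DLBCL3 and DLBCL5 (142 CPM) were the lowest of all 10 libraries, and the other four lay close together between 239 and 295 CPM. The mean was 214 ± 68.1 CPM (SD, n = 6) for DLBCL against 567 ± 82.3 CPM (SD, n = 4) for healthy dogs. The fitted level was 2.65-fold lower in DLBCL, or -1.41 in log2, with a standard error of 0.36 and a 95% interval from -2.19 to -0.62. The adjusted p-value of edgeR's quasi-likelihood test was 0.0397, and miR-151 stood in position 11 of the 247 miRNAs ordered by p-value. In an exact permutation test of the mean log2 CPM, two-sided, the difference of -1.47 gave a p-value of 0.00476, the smallest that 6 libraries against 4 can give. Groups without overlap give a value at or near this limit, so it adds little to that separation. It was not adjusted over the 247 miRNAs tested.

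The call of miR-151 depended on the libraries and on the scaling. It held without DLBCL3 or without DLBCL4 and was lost when any of the other eight libraries was left out, with log2 fold changes between -1.53 and -1.25 and adjusted p-values of edgeR between 0.0305 and 0.144. As deposited TPM, miR-151 ranged from 98.2 to 486 in DLBCL and from 309 to 600.1 in healthy nodes, so that the groups overlapped, and the log2 difference of -0.76 was not past the threshold (exact permutation test, two-sided, p = 0.238). Under total-read scaling, the median log2 fold change of all tested miRNAs moved from 0.13 to 0.82. Relative to that median, miR-151 stood at -1.54 with TMM and at -1.36 with total reads.

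In CPM, miR-151 was also the steadiest of the 3 members within each group. Its SD of log2 CPM was 0.52 in DLBCL and 0.22 in healthy nodes, and only 9.72% and 10.9% of the tested miRNAs had a smaller one. The highest library was 2.48 times the lowest in DLBCL and 1.40 times the lowest in healthy nodes. In TPM, the highest DLBCL library was 4.95 times the lowest for miR-151 and 3.44 times for miR-28, so the order of these members within DLBCL was the other way.

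miR-28, the most abundant member, did not pass the test, and its values in DLBCL were divided between 1 very high node and 5 lower ones. The level of cfa-miR-28 was 1032 CPM in Healthy2, 1246 in Healthy3, 1226 in Healthy4 and 577 in Healthy5. In DLBCL, it ranged from 388 CPM in DLBCL2 over a median of 531 to 2158 in DLBCL3. DLBCL3 was the highest of all 10 libraries, while DLBCL2, DLBCL4 (409 CPM) and DLBCL6 (430.0 CPM) lay below every healthy library. DLBCL1 (632 CPM) and DLBCL5 (740.0 CPM) lay between Healthy5 and the other three healthy nodes. The mean was 793 ± 683 CPM (SD, n = 6) for DLBCL against 1020.1 ± 311 CPM (SD, n = 4) for healthy dogs, with a log2 fold change of -0.36, a standard error of 0.53 and an adjusted p-value of 0.705 (edgeR). The 95% interval ran from -1.50 to 0.78, that is, from 0.352 to 1.71 times the healthy level, so neither a large fall nor a moderate rise can be told from no change with these libraries.

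Without DLBCL3, the log2 fold change of miR-28 was -0.94, with an adjusted p-value of 0.0948 (edgeR). With sample quality weights in limma voom, which count a library that stands apart less, it was -1.07 with an adjusted p-value of 0.0337 and passed both thresholds. As deposited TPM, miR-28 was 1778 in DLBCL3 and 517 to 874 in the other DLBCL nodes, against 523 to 1103 in healthy nodes. On that scale, the groups differed by 0.093 in log2 (exact permutation test, two-sided, p = 0.83), and DLBCL3 was again the highest of all.

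miR-708 was the scarcest member and did not differ between the groups beyond their spread. The level of cfa-miR-708 was 33.6 CPM in Healthy2, 31.1 in Healthy3, 21.8 in Healthy4 and 60.2 in Healthy5. In DLBCL, it ranged from 5.98 CPM in DLBCL3 over a median of 30.7 to 48.8 in DLBCL6. The lowest library was DLBCL3, the one with the highest miR-28, and the other five DLBCL nodes (19.2 to 48.8 CPM) lay within or just below the healthy range. The mean was 28.6 ± 14.7 CPM (SD, n = 6) for DLBCL against 36.7 ± 16.5 CPM (SD, n = 4) for healthy dogs. The log2 fold change was -0.36, with a standard error of 0.55, a 95% interval from -1.54 to 0.83 and an adjusted p-value of 0.709 (edgeR). In TPM, the difference had the other sign, 0.20 in log2 (exact permutation test, two-sided, p = 0.81).

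Read counts of miR-708 were lower than those of the other members. It had between 127 and 1970 reads in the DLBCL libraries and between 416 and 2054 in the healthy ones. In DLBCL3, the 127 reads amounted to 4.93 TPM, with an exact binomial 95% interval from 4.11 to 5.86 that covers counting error only. The next lowest DLBCL library had 20.4 TPM.

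**Figure D2:**
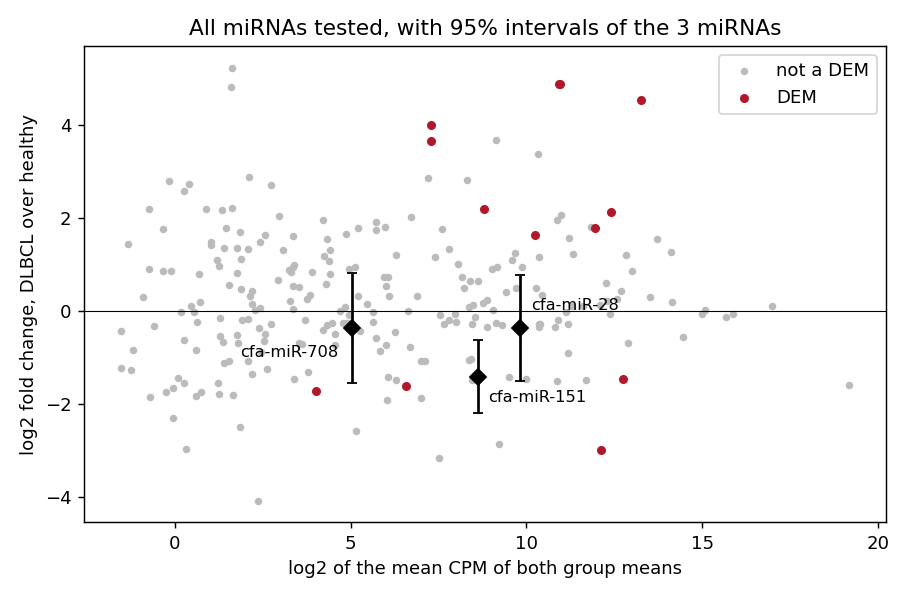
Log2 fold change (DLBCL against healthy) of every tested miRNA against its mean level in edgeR, with cfa-miR-28, cfa-miR-151 and cfa-miR-708 marked with their 95% intervals. The interval of miR-151 (-2.19 to -0.62) lies below 0 and those of miR-28 (-1.50 to 0.78) and miR-708 (-1.54 to 0.83) span it.

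Read quality differed among the libraries. By the study's quality statistics, DLBCL1, DLBCL2, DLBCL3 and DLBCL5 formed a group with a higher share of bases at a Phred score of 30 (Q30), and DLBCL4, DLBCL6 and all healthy libraries a group with a lower share. The higher group held no healthy library. Within the lower group alone, in edgeR, miR-151 had a log2 fold change of -1.24 (adjusted p = 0.0368) and miR-28 of -1.29 (adjusted p = 0.0619), against 0.14 (adjusted p = 0.863) for miR-708. With the Q30 group as a covariate over all 10 libraries, miR-151 was at -1.23 (adjusted p = 0.232), miR-28 at -1.28 (adjusted p = 0.348) and miR-708 at 0.14 (adjusted p = 0.930).

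**Figure D3:**
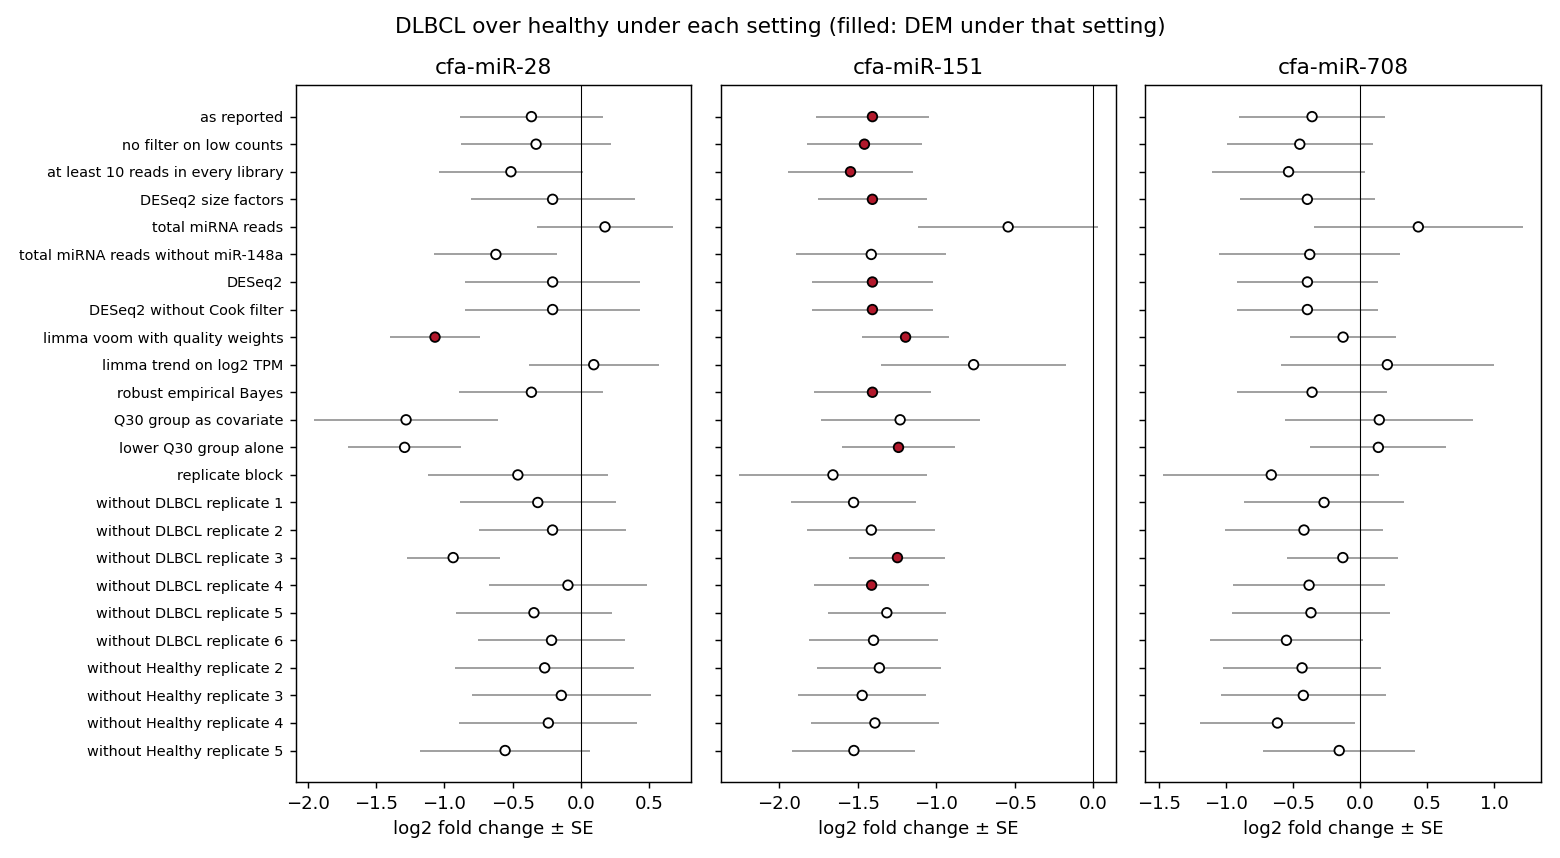
Log2 fold change (DLBCL against healthy) of each member, with its standard error, as reported and under each other setting of the processing, including the fits without 1 library. Filled points passed both DEM thresholds; miR-151 stayed below 0 in every setting, miR-28 passed in 1 setting and miR-708 in none.

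The order of the members was the same in every library, with miR-28 above miR-151 and miR-151 above miR-708. Since each read spans a whole mature miRNA, their counts need no correction for length, but the uneven ligation of adapters to different sequences is not corrected in them. By median CPM, miR-28 ranked 57 of the 247 tested miRNAs in DLBCL and 41 in healthy nodes. miR-151 ranked 80 and 55, and miR-708 ranked 121 and 118. Together, the members summed to 1035 ± 623 CPM (SD, n = 6) for DLBCL against 1624 ± 312 CPM (SD, n = 4) for healthy dogs, with ranges of 667 to 2283 and 1178 to 1901 that overlapped.

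Within a library, the make-up of the family does not depend on how libraries are scaled. In healthy nodes, miR-28 made up 61.6% of the members' reads in Healthy2, 71.5% in Healthy3, 64.5% in Healthy4 and 49.0% in Healthy5. In DLBCL, it made up 66.8% in DLBCL1, 58.1% in DLBCL2, 94.5% in DLBCL3, 59.7% in DLBCL4, 81.2% in DLBCL5 and 59.9% in DLBCL6. Hence 4 of the 6 DLBCL nodes had a miR-28 share within the healthy range, and DLBCL3 and DLBCL5 lay above it. miR-708 made up 1.15 to 5.11% in healthy nodes and 0.262 to 6.80% in DLBCL.

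**Figure D4:**
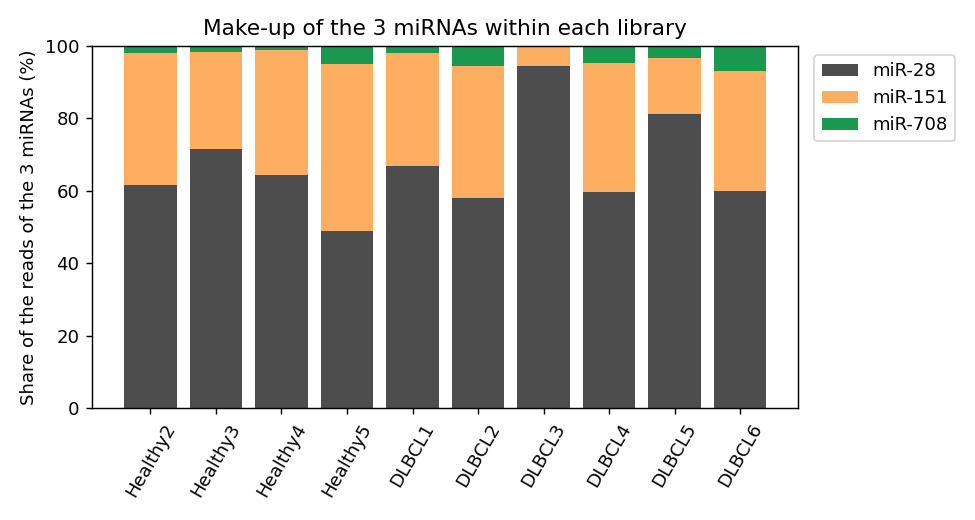
Share of cfa-miR-28, cfa-miR-151 and cfa-miR-708 among the reads of these 3 miRNAs in each library, in percent. miR-28 takes 94.5% in DLBCL3 and 81.2% in DLBCL5, and between 49.0 and 71.5% in the other eight libraries.

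The ratios between members tested whether they changed unequally. The reads of miR-151 per read of miR-28 were 0.591 in Healthy2, 0.373 in Healthy3, 0.533 in Healthy4 and 0.937 in Healthy5. In DLBCL, the ratio was 0.467 in DLBCL1, 0.628 in DLBCL2, 0.0553 in DLBCL3, 0.597 in DLBCL4, 0.192 in DLBCL5 and 0.556 in DLBCL6. Except for DLBCL3 and DLBCL5, the DLBCL nodes lay among the healthy ones. The mean log2 ratio was -1.65 ± 1.39 (SD, n = 6) for DLBCL against -0.80 ± 0.55 (SD, n = 4) for healthy dogs. The difference of -0.86 did not pass the exact permutation test (two-sided, p = 0.314, 0.471 after Benjamini-Hochberg adjustment over the 3 ratios).

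The ratio of miR-151 to miR-708 was 3.08 ± 0.86 in log2 in DLBCL and 4.04 ± 0.72 in healthy nodes, a difference of -0.96 (exact permutation test, two-sided, p = 0.1, adjusted p = 0.3). The log2 ratio of miR-708 to miR-28 was -4.73 ± 1.98 in DLBCL and -4.83 ± 1.11 in healthy nodes, a difference of 0.10 (exact permutation test, two-sided, p = 0.943, also after adjustment). Although miR-151 alone was a DEM, an unequal change of the 3 members was therefore not shown.

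**Figure D5:**
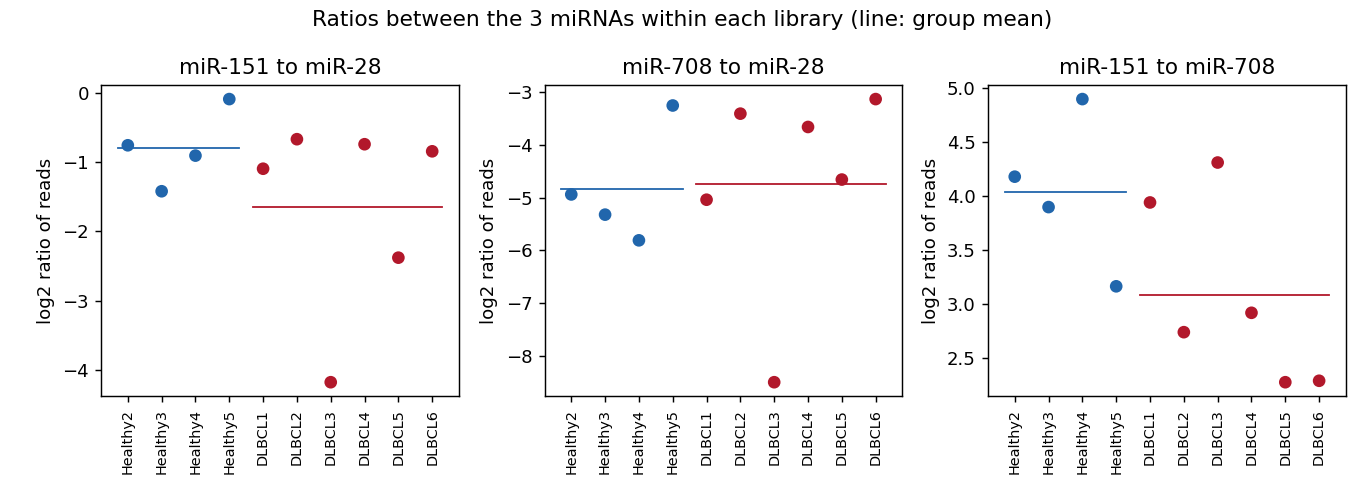
Log2 ratio of the reads of each pair of members within each library (blue, 4 healthy; red, 6 DLBCL), with lines at the group means. The groups overlap in all 3 panels, and DLBCL3 is the lowest library in both ratios to miR-28.

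DLBCL3 had the highest miR-28 and the lowest miR-151 and miR-708 of the 10 libraries, with miR-151 close to that of DLBCL5 (119 and 142 CPM, 98.2 and 99.2 TPM). Its reads of miR-28 were 18.1 times those of miR-151 and 360 times those of miR-708. Across the 6 DLBCL libraries, log2 CPM of miR-28 and miR-708 had a Pearson correlation of -0.94 and a Spearman correlation of -0.77 (exact permutation tests, two-sided, p = 0.0264 and 0.103, adjusted p = 0.0583 and 0.308 over the 3 pairs). Those of miR-28 and miR-151 had -0.81 and -0.60 (exact permutation tests, p = 0.0389 and 0.242, adjusted p = 0.0583 and 0.362). Without DLBCL3 and DLBCL5, the libraries farthest from the median in miR-28, the Pearson correlation was -0.82 for miR-708 and turned to 0.96 for miR-151, so the latter rested on these libraries.

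miR-151 and miR-708 had a Pearson correlation of 0.62 and a Spearman correlation of 0.20 in log2 CPM within DLBCL (exact permutation tests, two-sided, p = 0.176 and 0.714, adjusted p = 0.176 and 0.714). Without DLBCL3 and DLBCL5, the Pearson correlation was -0.93. In log2 TPM, their Pearson correlation was 0.85 with a Spearman correlation of 1 (exact permutation tests, p = 0.00139 and 0.00278, adjusted p = 0.00417 and 0.00833), and it was 0.86 without the same libraries. In TPM, the Pearson correlation of miR-28 was -0.31 with miR-151 and -0.57 with miR-708 (exact permutation tests, p = 0.64 and 0.239, adjusted p = 0.64 and 0.358), and the Spearman correlation was 0.086 with both (exact permutation tests, p = 0.919, also after adjustment). Without DLBCL3 and DLBCL5, these Pearson correlations in TPM turned to 0.77 and 0.39, so the opposite course of miR-28 and the other members in CPM did not hold in TPM. The TMM factor is shared by all miRNAs of a library, and the members' deviations from their group means correlated with its log2 at -0.69 for miR-28, 0.47 for miR-151 and 0.63 for miR-708 over the 10 libraries.

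The profiles most like each member were found from log2 CPM after the group means were subtracted, over 10 libraries and 246 other miRNAs, and are given as a description. For miR-28, they were miR-532 (Pearson correlation 0.97), miR-671 (0.96) and miR-185 (0.95), and in TPM these had 0.93, 0.91 and 0.89. For miR-708, they were miR-490 (0.96), miR-130a (0.95) and miR-199 (0.94), with 0.98, 0.97 and 0.97 in TPM. For miR-151, the nearest in CPM were miR-383 (0.83), miR-885 (0.83) and miR-323 (0.82), of which miR-885 had 0.92 in TPM while the others fell to positions 124 and 120. In TPM, its nearest were miR-19a (0.94), miR-19b (0.94) and miR-350 (0.93), which were named after their values were seen. Between members, the correlation was -0.70 for miR-28 with miR-151, -0.94 for miR-28 with miR-708 and 0.49 for miR-151 with miR-708 in CPM, and -0.23, -0.44 and 0.83 in TPM. These correlations over 10 libraries were not computed again without DLBCL3, which had the highest miR-28 and the lowest miR-708, so they may rest largely on it.

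Markers of other cells in the node are given beside these values, and their part in the members' levels was not tested. The summed level of 6 miRNAs of mature resting lymphocytes was 15625 to 29766 CPM in DLBCL and 32640 to 48337 CPM in healthy nodes, without overlap. This separation held in CPM only. In TPM, which leaves out the TMM factors (1.75 in DLBCL4, 0.507 in Healthy2), DLBCL4 (29766 CPM) lay above Healthy2 (32640 CPM). All 6 of these miRNAs had log2 fold changes below 0, with a median of -0.66 against 0.13 over all tested miRNAs, and 1 was a DEM. Most of their sum was miR-26a, with a mean of 18311 CPM in DLBCL and 26809 CPM in healthy nodes. It was not a DEM (log2 fold change -0.55, adjusted p = 0.211 in edgeR), although its CPM did not overlap between the groups. The 3 miRNAs of red blood cells summed to 5171 to 35567 CPM in DLBCL and 808 to 1070.5 CPM in healthy nodes, with a median log2 fold change of 4.53, and 2 of them were DEMs. The 4 miRNAs of the pancreas (miR-216a, miR-216b, miR-217 and miR-375), a tissue foreign to the lymph node, summed to 32.6 to 663 CPM in DLBCL and 916 to 1951 CPM in healthy nodes, without overlap. That too held in CPM only, since DLBCL4 (663 CPM) lay above Healthy2 (1951 CPM) in TPM. Of the 4 miRNAs, 3 had log2 fold changes below 0 and 1 above, with a median of -2.70, and none was a DEM.

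Of 7 listed epithelial miRNAs, 3 were tested, 4 had no read in some library and none was a DEM, with a median log2 fold change of 0.51. Their sum was 115 CPM in DLBCL3, 70.5 in DLBCL5 and 18.2 to 29.9 in the other DLBCL nodes, against 21.2 to 32.4 CPM in healthy nodes. A different miRNA made up most of the sum in each of the higher libraries. It was miR-200c in DLBCL3 (108 CPM, against 8.93 to 19.7 CPM in the other nine libraries) and miR-203 in DLBCL5 (48.7 CPM, against 3.25 to 11.97 CPM), while miR-141 was 1.54 to 7.30 CPM in all libraries. In TPM, the profile most like miR-28 was miR-200c (Pearson correlation 0.97), which was named after its values were seen. Stromal and vessel miRNAs (9 of 10 listed and tested, median log2 fold change -0.30) and myeloid miRNAs (3, median 0.56) held no DEM, and their sums overlapped between the groups.

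Among 16 other miRNAs with a role in activated or germinal centre B cells, all of which were tested, 1 was a DEM higher in DLBCL and 2 were DEMs lower in DLBCL. Over all tested miRNAs, 3.64% were DEMs higher and 2.02% were DEMs lower. The median log2 fold change of the 16 was -0.30, against 0.13 over all tested miRNAs. miR-150, which marks mature resting lymphocytes and limits MYB, averaged 1009 ± 488 CPM (SD, n = 6) for DLBCL against 7916 ± 5434 CPM (SD, n = 4) for healthy dogs, with a log2 fold change of -2.97 and an adjusted p-value of 0.00687 (edgeR). miR-146a, which limits signaling to NF-κB, had a log2 fold change of -1.46, close to the -1.41 of miR-151, and the same adjusted p-value of 0.0397 (edgeR). miR-34a, a target of p53, had a log2 fold change of 4.0 with an adjusted p-value of 0.0397 (edgeR).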

How the data were processed

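Small RNA-seq of fresh-frozen lymph nodes was analyzed in 6 DLBCL and 4 healthy dogs. Condition and replicate number were taken from the sample titles. According to the methods and the submitters' processing notes, the authors mapped reads with Bowtie 0.12.9 to CanFam3.1 and used miRDeep2 with miRBase 20 for the counting. The authors deposited raw read counts of 320 miRNAs and TPM values, which differed from counts rescaled to the listed reads by at most 4.55e-05. An alignment that can place a read on several miRNAs moves counts between similar sequences. Mapping was not repeated.

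From the counts, edgeR 4.0.16 (R 4.3.3) was run with TMM, filterByExpr (247 miRNAs kept), the quasi-likelihood test and Benjamini-Hochberg adjustment, with no covariate (biological coefficient of variation 0.731). Log2 CPM used a prior count of 2, log2 TPM a pseudocount of 1 and log2 ratios a pseudocount of 0.5. Exact permutation tests enumerated all regroupings, and the two-sided p was the share with an absolute difference or correlation at least as large as observed (checked against scipy 1.17.1). The fit was tested on simulated data. Alternatives used DESeq2 1.42.0 and limma 3.58.1, other scalings and filters, the Q30 groups, a replicate block and each library left out. The members, lists and tests were chosen with earlier results of these data known. By rule, the members, DEMs of the B cell list and the 3 nearest profiles of each member were named. The B cell list shared miR-150, miR-181a and miR-181b with the lymphocyte list and miR-217 with the pancreas list. Intervals of shares cover counting error only. All libraries differed beyond sampling noise (smallest chi-square per degree of freedom between libraries of a group, 2115). Coordinates are not given because the annotation is of another build than the files. No mature sequences were used here, so the planned search for other miRNAs with the seed was not run.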

Additional observations from a re-analysis of the deposited data

Results flagged for a closer look

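The level of miR-28 in DLBCL3, 2158 CPM, lay far from the other DLBCL libraries, the nearest of which was at 740.0 CPM. The gap between them was 0.80 of the whole range of the group, above the critical value of Dixon's test for 6 values. The test was run on CPM, which spreads high values more than log2 CPM does, and was not run on log2 CPM. On that scale, DLBCL3 was at 11.08, the nearest library (DLBCL5) at 9.53 and the lowest (DLBCL2) at 8.60.

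The log2 ratio of miR-708 to miR-28 in DLBCL3, -8.49, lay far below that of the nearest DLBCL library, -5.04, with a gap of 0.645 of the range. Both values come from the same library and share the count of miR-28. Of 12 groups of values examined in this way, chance would single out about 1 in 20.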

How the results depend on the processing

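The log2 fold change of miR-151 was below 0 under all 13 alternatives and in all 10 fits without 1 library. It kept its DEM call under 8 alternatives, among them DESeq2, and lost it with total miRNA reads (-0.54), total reads without miR-148a (-1.41, adjusted p = 0.112), limma on log2 TPM (-0.76), the Q30 covariate (-1.23) and the replicate block (-1.66, adjusted p = 0.18 in edgeR). The adjusted p over the 13 ran from 0.00396 to 0.551. The replicate block uses numbers that do not pair the dogs. DLBCL1 and DLBCL6 have no healthy library of their number and add nothing to its group difference. miR-28 changed sign with total reads (0.18) and limma on log2 TPM (0.093), and became a DEM with voom quality weights (-1.07). DESeq2 gave no p-value for it under its Cook's distance filter. miR-708 changed sign with total reads (0.43), log2 TPM (0.20), the Q30 covariate (0.14) and the lower Q30 group alone (0.14).

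Against 14 DEMs, there were 8 with DESeq2's size factors, 23 with total reads (22 higher and 1 lower), 38 with DESeq2, 45 with DESeq2 without its Cook's filter, 46 with voom, 7 with the Q30 covariate, 46 in the lower Q30 group alone and 1 with the replicate block. The group difference (DLBCL minus healthy) in the log2 ratio of miR-151 to miR-28 turned to 0.000621 in the lower Q30 group. The difference in the log2 ratio of miR-708 to miR-28 turned to -0.22 with the replicate block. The correlation of miR-151 with miR-708 passed the threshold in log2 TPM (0.85). The cause of these changes was not tested. When the smaller tail was doubled in place of counting absolute differences, a choice added after seeing the data, the ratios and correlations in log2 CPM kept their side of the threshold, with adjusted p between 0.117 and 0.886, and miR-151 in log2 CPM gave p = 0.00952 in the exact permutation test.

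With 1 library left out, the DEM count ran from 1 (without Healthy4) to 23 (without DLBCL4), miR-151 from -1.53 to -1.25, miR-28 from -0.94 to -0.10 and miR-708 from -0.62 to -0.13. The group differences in log2 ratio ran from -1.07 to -0.35 (miR-151 to miR-28), from -0.23 to 0.85 (miR-708 to miR-28) and from -1.25 to -0.67 (miR-151 to miR-708). The correlations ran from -0.93 to -0.51 (miR-28 with miR-151), from -0.97 to -0.64 (miR-28 with miR-708) and from -0.16, without DLBCL3, to 0.82 (miR-151 with miR-708).

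Libraries of the 2 groups that share a number did not deviate together (correlations of 0.26, -0.01, -0.30 and -0.33 for numbers 2 to 5), and 1 of the 4 pairs correlated best with its own number, so the numbers name the dogs and do not pair them. With 6 dogs against 4, the exact permutation test cannot give a p-value under 0.00476.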
